A study of Mus musculus with 11 samples.

Results

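The genes described here encode receptors of B cells that bind antibody constant regions, and relatives of those receptors. They are Fcmr (named Faim3 on the array), Fcer2a, Fcgr2b, Fcrla, Fcrlb, Fcrl1 and Fcrl5. They were taken by gene name from the array annotation and were selected on their log2 levels in these tumours and the differences between lymphoma types, so both are a description and carry no test. The array held 8 probes for the 7 genes, printed on 17 spots, among 39429 probes in all, and each of the 7 genes was well above background on enough arrays to be kept.

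RNA of 11 mouse lymph node lymphomas was hybridised to one-colour arrays, 1 tumour per array. There were 4 tumours of plasma cell lymphoma (PCL), 3 of mantle cell lymphoma (MCL) and 4 of Burkitt lymphoma (BL). All 11 tumours share the strain, Black 6, and the genotype, c-myc-3'RR/p53+/-, and the labels give no treatment, age or normal B cell sample. In such mice a c-myc transgene is driven by a regulatory region (3'RR) of the heavy chain locus of immunoglobulin, which is active in B cells, and a p53 allele is missing. The labels place all tumours at the mature B cell stage and do not say whether each came from a different mouse, so a p-value here reflects the spread among these samples alone, and that spread may be technical.

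Fc receptors couple antibody to the cell that carries them. On B cells the IgG receptor FcγRIIB carries an inhibitory motif (ITIM) that recruits the phosphatase SHIP1 when antigen and IgG bind together, and so restrains the B cell receptor. CD23 is a low-affinity IgE receptor typical of follicular B cells, the IgM receptor FcμR is found mainly on lymphocytes, and the Fc receptor-like proteins either modulate B cell receptor signals at the surface or stay inside the cell.

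The array read each transcript through a probe of 60 bases. The first 30 bases of each are shown because they fix which transcript was read, and no stretch longer than 9 bases was shared by any of the 28 pairs of probes.
Fcmr: cgttttccttataggatccctgtcatggcg
Fcer2a: atctgggatgagtcctcccatcaagtttgc
Fcgr2b: acttctgtgagtcctgaaaccaacagacac
Fcrla: ctgttcgagtgtaaataaatgcatacaggg
Fcrlb: agacacccaattctcacgttactgtgaacc
Fcrl1: tacttttgataactgacggacattaaagtt
Fcrl5, brighter probe: tgggcctcccccctaccccctttataagcg
Fcrl5, dimmer probe: tttcctcacagcaacagaaaaatgtctgat

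On mouse build mm9, as the array annotation gives it, the probes lay in 4 places. The Fcmr probe was at chr1:132777256-132777315 on the plus strand and the Fcer2a probe at chr8:3682343-3682402 on the minus strand. The probes of Fcrlb (chr1:172837421-172837480), Fcrla (chr1:172848103-172848162) and Fcgr2b (chr1:172890988-172891047), all on the minus strand, lay within 53.6 kb of each other. The probes of Fcrl1 (chr3:87195973-87196032) and Fcrl5 (chr3:87271386-87271445 and chr3:87304541-87304600), all on the plus strand, spanned 108.6 kb, and the pair for Fcrl5 lay 33.2 kb apart. Exon and UTR positions on mm9 were not analysed here. In the RefSeq gene order of assembly GRCm38.p6, Fcmr stood next to Pigr, the transporter of IgA and IgM across epithelia. Fcgr2b stood next to Fcgr4, an activating IgG receptor, and Fcrl1 and Fcrl5 stood side by side.

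Levels are log2 of the processed signal minus the 75th percentile of the same array, so a level of 0 equals that percentile. Signals of different probes cannot be set against each other, because probes differ in how well they bind. The percentile lay between 1067 and 1632 intensity units, 55.5% to 62.8% of an array's spots were well above background, and 0 spots were saturated. All 6 B cell markers on the list used, such as Cd79a and Ms4a1, were well above background on all 11 arrays, with list medians of -0.20 to 0.17 in PCL, -0.48 to 0.13 in MCL and 0.17 to 0.42 in BL after centring by gene. Of these markers Ms4a1, which encodes CD20, differed from the list median: PCL minus MCL was -1.54 ± 0.43 (SE; adjusted p = 0.0622, limma) and PCL minus BL -1.53 ± 0.40 (SE; adjusted p = 0.103, limma), the same sign as for Fcmr. The types were on separate slides, so type and slide cannot be told apart.

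Fcmr had the largest difference of the 7 members between PCL and MCL. It encodes the receptor for the constant region of IgM and was lower in plasma cell lymphomas than in mantle cell lymphomas. Its level was 4.42, 3.78, 3.70 and 2.39 in the 4 PCL tumours, 6.86, 6.17 and 6.86 in the 3 MCL tumours, and 6.40, 5.42, 6.08 and 4.01 in the 4 BL tumours. No PCL tumour reached the lowest MCL tumour. The highest PCL tumour lay above the lowest BL tumour, and the lowest MCL tumour below the highest BL tumour, so BL overlapped both other types. The PCL mean was 3.57 ± 0.85 (SD, n = 4). MCL had 6.63 ± 0.40 (SD, n = 3), and BL had 5.48 ± 1.06 (SD, n = 4). In processed intensity the probe ran from 7379 units in PCL4 to 183764 units in MCL3.

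**Figure D1:**
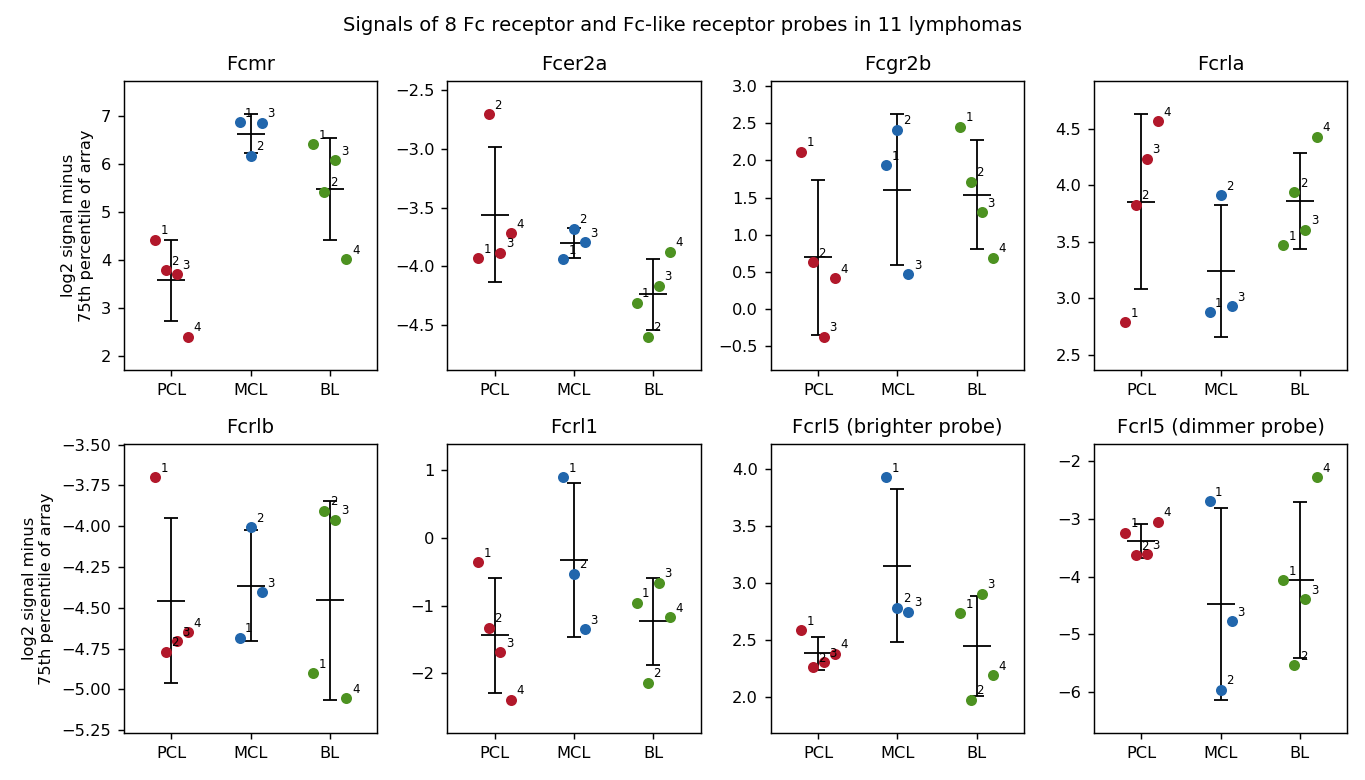
Level of each of the 8 probes (vertical axis, log2 signal minus the 75th percentile of the array) in PCL, MCL and BL; each point is 1 tumour with its replicate number, horizontal lines are type means and bars are 1 SD. The 4 PCL tumours lie below the 3 MCL tumours for Fcmr and for the brighter Fcrl5 probe, and types overlap for the other 6 probes.

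The Fcmr difference, PCL minus MCL, was -3.06 ± 0.60 (SE), an 8.32-fold lower signal in PCL, with a 95% interval of -4.39 to -1.73. Of the 20180 genes tested, 1.99% differed by more between these types. The members were selected on these differences, so this share is a description and carries no test. PCL minus BL was -1.91 ± 0.55 (SE), with an interval of -3.14 to -0.67. MCL minus BL was 1.15 ± 0.60 (SE), and its interval, -0.18 to 2.48, included 0. In order of mean level the types ran MCL, BL, PCL, and the BL tumours overlapped those of both other types. Fcmr was not called between PCL and BL (adjusted p = 0.119, limma) or between MCL and BL (adjusted p = 0.358, limma).

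Fcgr2b, the inhibitory IgG receptor, varied about as much within a type as between types. Its level was 2.12, 0.63, -0.38 and 0.41 in PCL, 1.94, 2.41 and 0.47 in MCL, and 2.46, 1.71, 1.30 and 0.69 in BL. The types overlapped, since PCL1 lay with the high tumours of MCL and BL, and MCL3 and BL4 lay with the low tumours of PCL. The means were 0.69 ± 1.05 (SD, n = 4), 1.61 ± 1.02 (SD, n = 3) and 1.54 ± 0.74 (SD, n = 4). PCL minus MCL was -0.91 ± 0.65 (SE), with an interval of -2.36 to 0.54, and MCL minus BL was 0.07 ± 0.65 (SE), with an interval of -1.38 to 1.52. This probe was printed on 10 spots per array, whose SD within an array was 0.05 to 0.09, far below the spread between tumours of a type.

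Fcer2a, which encodes CD23, was dim in all 11 tumours, although its probe was well above background on every array. Its processed signal ran from 60.3 to 251 intensity units. The level lay between -3.93 and -2.70 in PCL, between -3.94 and -3.68 in MCL and between -4.60 and -3.88 in BL. The PCL2 tumour was the high one, and the other 3 PCL tumours lay within the range of MCL. The mean was -3.56 ± 0.58 (SD, n = 4) in PCL. MCL had -3.81 ± 0.13 (SD, n = 3), and BL had -4.24 ± 0.30 (SD, n = 4). MCL minus BL was 0.43 ± 0.30 (SE), with an interval of -0.24 to 1.11, which includes 0. PCL minus BL was 0.68 ± 0.28 (SE; adjusted p = 0.246, limma), with an interval of 0.05 to 1.31, and it was 0.40 without PCL2. Under 21 other settings this difference ran from 0.27 with the authors' table of values to 0.94 with scaling to B cell markers. Fcer2a was called between PCL and BL in 0 of them.

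Fcrl1, a surface receptor with activating (ITAM-like) motifs that is largely restricted to B cells, had its highest value in MCL1. Its level was -0.36, -1.33, -1.69 and -2.39 in PCL, 0.90, -0.53 and -1.35 in MCL, and -0.96, -2.14, -0.66 and -1.17 in BL. The means were -1.44 ± 0.84 (SD, n = 4), -0.33 ± 1.14 (SD, n = 3) and -1.23 ± 0.64 (SD, n = 4), and all 3 types overlapped. PCL minus MCL was -1.11 ± 0.60 (SE), with an interval of -2.46 to 0.23.

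Fcrl5, an Fc receptor-like protein of mature B cells whose cytoplasmic part has both activating and inhibitory motifs, was read by a pair of probes that gave opposite orders. The brighter probe gave 2.58, 2.26, 2.31 and 2.38 in PCL, 3.93, 2.78 and 2.75 in MCL, and 2.73, 1.98, 2.91 and 2.19 in BL. All PCL tumours lay below all MCL tumours on it, by -0.77 ± 0.33 (SE) in the mean (interval -1.49 to -0.05). MCL1 was again the highest tumour, and without it the difference was -0.38. The dimmer probe gave -3.24, -3.63, -3.61 and -3.05 in PCL, -2.69, -5.96 and -4.78 in MCL, and -4.06, -5.54, -4.39 and -2.28 in BL. On the dimmer probe the PCL tumours lay inside the MCL range, PCL minus MCL was 1.09 ± 0.82 (SE), and MCL2 was not well above background. With the median of both probes standing for Fcrl5, PCL minus MCL was 0.16, against -0.77 with the brighter one.

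Fcrla, an intracellular relative of the Fc receptors found in B cells, had a positive PCL minus MCL difference, as did Fcer2a. Its level was 2.79, 3.83, 4.23 and 4.57 in PCL, 2.88, 3.91 and 2.93 in MCL, and 3.47, 3.94, 3.61 and 4.43 in BL. PCL1 was the lowest tumour of all and PCL4 the highest, so the PCL tumours spanned the whole range. The means were 3.85 ± 0.77 (SD, n = 4), 3.24 ± 0.58 (SD, n = 3) and 3.86 ± 0.43 (SD, n = 4). PCL minus MCL was 0.61 ± 0.44 (SE), with an interval of -0.36 to 1.59.

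Fcrlb, the other intracellular relative, was dim throughout, at 41.2 to 97.9 intensity units, and well above background on every array. Its level lay between -4.77 and -3.70 in PCL, -4.68 and -4.01 in MCL, and -5.05 and -3.90 in BL. The type means were -4.46, -4.36 and -4.45, and each of the 3 differences lay within 0.10 of 0. The intervals still allowed -0.92 to 0.74 for PCL minus MCL.

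**Figure D2:**
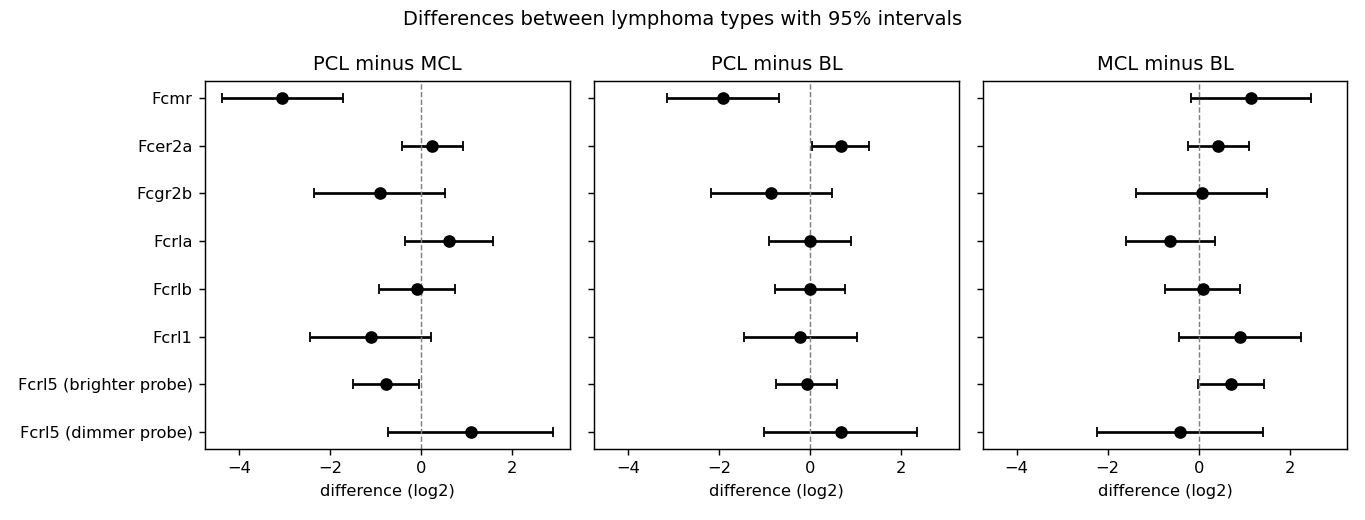
Differences between lymphoma types (horizontal axis, log2, first-named type minus the second) for the 8 probes, with 95% intervals from the fit of all 11 arrays. The Fcmr intervals lie below 0 for PCL minus MCL (-4.39 to -1.73) and PCL minus BL (-3.14 to -0.67), those of the brighter Fcrl5 probe for PCL minus MCL and of Fcer2a for PCL minus BL end near 0 without including it, and the pair of Fcrl5 probes point in opposite directions for PCL minus MCL (-0.77 and 1.09).

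Over the 7 members, PCL minus MCL was negative for 5 and positive for 2, with a median of -0.77, against a median of -0.03 over all genes tested. PCL minus BL was negative for 6, with a median of -0.07 against 0.09. MCL minus BL was positive for 6, with a median of 0.43 against 0.06. Of the negative PCL minus BL values, those of Fcrlb (-0.001), Fcrla (-0.0055) and Fcrl5 (-0.07) lay near 0. Among the positive MCL minus BL values, Fcgr2b (0.07) and Fcrlb (0.09) lay near 0. At an adjusted p under 0.05 (limma, Benjamini-Hochberg over all genes) 1 of 7 members, Fcmr, was called between PCL and MCL, where 6.94% of all genes were (2.13% higher and 4.82% lower in PCL). None was called between PCL and BL (0.659% of all genes; 0.456% higher and 0.203% lower in PCL) or between MCL and BL (6.65% of all genes; 6.45% higher and 0.198% lower in MCL). At an unadjusted p under 0.05 (limma) the counts were 2 of 7 (Fcmr and Fcrl5) between PCL and MCL, where 24.4% of all genes passed, 2 of 7 (Fcmr and Fcer2a) between PCL and BL, where 17.6% did, and 0 of 7 between MCL and BL, where 18.5% did. The tumours of both types did not overlap for 2 of 7 members between PCL and MCL, Fcmr and Fcrl5, where 22.9% of all genes did not. For 0 of 7 members was this so between PCL and BL (11% of all genes) or between MCL and BL (17.7% of all genes). The 7 genes were picked with these differences known, so nothing is read from the counts.

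**Figure D3:**
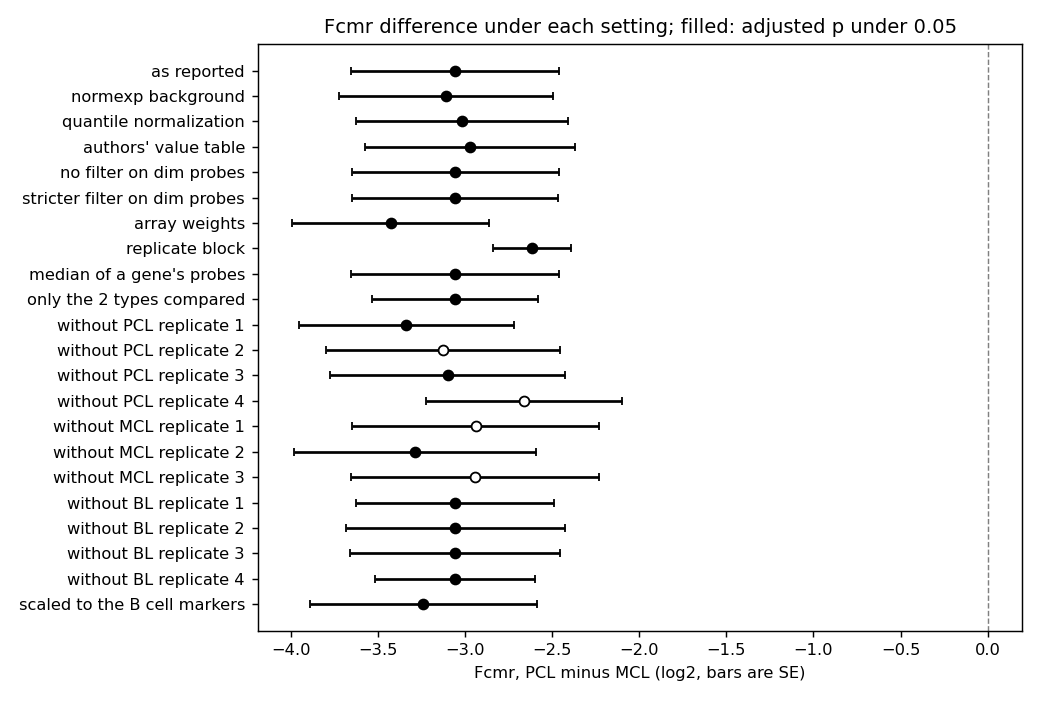
Fcmr difference, PCL minus MCL (horizontal axis, log2, bars are SE), as reported and under 21 other settings of normalization, filter, model and tumours used; filled points were called and open points were not. The difference stays between -3.43 and -2.62, and the 4 open points are the fits without PCL2, PCL4, MCL1 or MCL3.

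The Fcmr difference between PCL and MCL lay between -3.43 and -2.62 under the 21 other settings tried, and Fcmr was called in 17 of them. The count of members called fell from 1 to 0 when PCL2 (difference -3.13), PCL4 (-2.66), MCL1 (-2.94) or MCL3 (-2.94) was left out. Between PCL and BL Fcmr was called in 2 of the 21 settings.

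Over the 11 tumours, which differ in type, slide and position on the slide, the 21 pairs of members are described by Pearson's r with no p. Fcrl5 is represented here by its brighter probe, and no r was computed for the dimmer probe, which ordered the tumours differently. The neighbours Fcrl1 and Fcrl5 had the highest r, 0.86 (Spearman's rho 0.66). It was 0.80 on deviations from type means, and 0.75 without the 2 tumours farthest from the Fcrl1 median. Fcmr went with Fcrl5 (r 0.63), Fcrl1 (0.60) and Fcgr2b (0.58). On deviations from type means these were 0.45, 0.46 and 0.43, and without the 2 tumours farthest from the Fcmr median they were 0.67, 0.35 and 0.34. Fcrla ran the other way, with r of -0.68 against Fcmr, -0.68 against Fcrl1, -0.63 against Fcrl5 and -0.47 against Fcgr2b. For Fcrla and Fcmr it was -0.84 on deviations from type means, and -0.47 without the 2 tumours farthest from the Fcmr median. The tumour PCL1, with the highest Fcmr, Fcgr2b and Fcrl1 of its type, had the lowest Fcrla. PCL4, with the lowest Fcmr and Fcrl1 of its type, had the highest Fcrla. In BL, BL1 had the highest Fcmr and the lowest Fcrla, and BL4 the lowest Fcmr and the highest Fcrla. BL1 and BL4 share their slide positions with PCL1 and PCL4. In MCL the lowest Fcmr and highest Fcrla were in MCL2. Deviations from type means do not remove position, and its part in these r was not tested.

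Among the other named genes, those whose levels followed a member most closely over the 11 tumours were as follows, as a description. For Fcmr they were Tnks1bp1 (r 0.95), Kcnk5 (0.94) and Zbtb38 (0.94). For Fcrl1 they were the class II genes H2-Eb1 (0.95) and H2-DMa (0.92), which present antigen or load peptides, and BC051019 (0.93). For Fcrl5, read by its brighter probe, they were Prp2 (0.96), Nlrc3 (0.95) and Cfhr2 (0.95). For Fcgr2b they were Sesn3, Glrx and Rbm3 (0.93 each), and for Fcrla they were Wdpcp (0.94), Sox4 (0.93) and Nr1d1 (0.92). The dim members had lower values, with Ednrb (0.88), Ankrd66 (0.86) and Ocstamp (0.86) for Fcer2a, and Cited1 (0.91), Anapc16 (0.89) and Necab2 (0.89) for Fcrlb. Each of these is the top of a ranking over 14065 named genes and 11 tumours.

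The 250 bases upstream of the gene starts are shown for Fcmr, the member that differed most, and for the neighbours Fcrl1 and Fcrl5. This pair had the highest r, with the brighter probe standing for Fcrl5. The sequences come from RefSeq, assembly GRCm38.p6, and are written along the gene's strand. They lie at chr1:130865527-130865776, chr3:87376137-87376386 and chr3:87435532-87435781, all on the plus strand. Capitals mark the letters GAGGAA on either strand, a core bound by ETS factors of the PU.1 and Spi-B kind.
Fcmr: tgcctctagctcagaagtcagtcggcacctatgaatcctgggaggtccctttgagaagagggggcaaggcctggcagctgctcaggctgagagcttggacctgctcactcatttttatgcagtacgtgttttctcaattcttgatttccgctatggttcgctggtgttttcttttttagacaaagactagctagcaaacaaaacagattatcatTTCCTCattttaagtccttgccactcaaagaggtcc
Fcrl1: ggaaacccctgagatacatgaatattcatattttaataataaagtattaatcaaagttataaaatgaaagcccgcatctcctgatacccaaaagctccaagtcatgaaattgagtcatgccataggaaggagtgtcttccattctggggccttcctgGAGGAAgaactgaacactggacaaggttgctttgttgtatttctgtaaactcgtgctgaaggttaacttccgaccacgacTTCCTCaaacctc
Fcrl5: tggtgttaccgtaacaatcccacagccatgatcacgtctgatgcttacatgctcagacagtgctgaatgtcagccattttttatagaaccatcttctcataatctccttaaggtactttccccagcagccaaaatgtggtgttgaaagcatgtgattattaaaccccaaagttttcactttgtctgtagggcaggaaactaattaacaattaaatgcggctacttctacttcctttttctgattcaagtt

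These letters occurred 1 time upstream of Fcmr, 2 times upstream of Fcrl1 and 0 times upstream of Fcrl5. They also occurred 1 time each upstream of Fcrla and Fcrlb, and 0 times upstream of Fcgr2b and of the listed starts of Fcer2a. Of 32851 RefSeq windows of this length, 23.3% hold them. The octamer ATGCAAAT (1.6% of windows) and the E-box CACGTG (6.02%), each searched on both strands, were found upstream of none of the 7 members. The letters of these 3 motifs do not contain one another, and a match is a description of the letters only.

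Of 13 other Fc receptors and Fc-binding proteins, 8 were measured, with a median PCL minus MCL difference of 1.11 against -0.03 over all genes. Fcgrt, the neonatal Fc receptor that recycles IgG, was higher in PCL by 3.78 ± 0.98 (SE; adjusted p = 0.049, limma). Its levels were -4.87, -0.61, -1.58 and -1.65 in PCL and -4.38, -7.21 and -6.29 in MCL. PCL1 lay with MCL and the other 3 PCL tumours lay above. The Fcgrt probe was well above background on 9 arrays, not on all. The lowest Fcgrt levels of all tumours were -7.21 and -6.29, both in MCL. Signals near background may limit the Fcgrt mean in MCL and the size of the difference. The activating IgG receptors Fcgr4 (2.37 ± 1.22 SE, adjusted p = 0.267, limma) and Fcgr1 (1.34 ± 0.56 SE, adjusted p = 0.176, limma) and the shared signalling chain Fcer1g (2.36 ± 0.76 SE, adjusted p = 0.0932, limma) were not called. Trim21, an antibody receptor of the cytosol, ran the other way without being called, at -1.68 ± 0.49 (SE; adjusted p = 0.0699, limma). Pigr, at -0.90, and Fcrls, at -0.49, also had negative PCL minus MCL values and were not called. Fcrls, an Fc receptor-like gene near Fcrl1, was higher in MCL than in BL by 1.15 ± 0.20 (SE; adjusted p = 0.00902, limma). Its levels were -3.59, -3.84 and -4.09 in MCL and between -5.26 and -4.75 in BL.

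Macrophage and monocyte markers were high in 3 of the 4 PCL tumours. Of 15 listed, 14 were measured and 13 were higher in PCL than in MCL. Of these 2 (Cd14 and Msr1) were called, where 2.13% of all genes were called higher in PCL. At an unadjusted p under 0.05 (limma) 11 of the 14 passed, where 24.4% of all genes did. Against BL all 14 were higher in PCL and none was called (0.659% of all genes). There 6 passed at an unadjusted p under 0.05 (limma), where 17.6% of all genes did. Cd163 did not pass the filter. The list median was -0.91 in PCL1, 2.67, 1.30 and 1.72 in the other 3 PCL tumours, 0.42, -1.95 and -1.37 in MCL, and between -0.65 and 0.05 in BL. Fcgrt, Fcgr4, Fcgr1 and Fcer1g are also expressed by macrophages, and Fcgr1 is on both lists. In whole tumours fewer cells of a type and less RNA per cell cannot be told apart, and the part of other cells in the differences of Fcgrt and of the members was not tested. The Fcmr difference, PCL minus MCL, was -3.34 without PCL1, the PCL tumour with the lowest macrophage marker median, and -3.24 when arrays were scaled to the B cell markers. Of 7 plasma cell markers 7 were higher in PCL than in BL and none was called (0.659% of all genes). At an unadjusted p under 0.05 (limma) 4 passed, where 17.6% of all genes did. Between PCL and MCL 5 of the 7 were higher and 2, Irf4 (-0.02) and Xbp1 (-0.13), were lower. None was called there (6.94% of all genes), and 3 passed at an unadjusted p under 0.05 (limma), where 24.4% of all genes did.

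**Figure D4:**
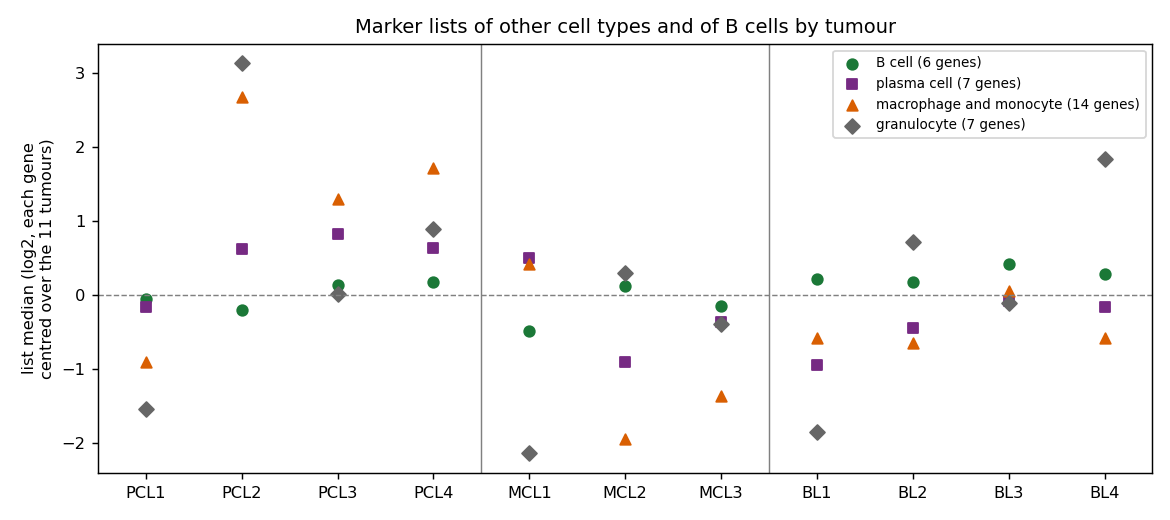
Median of 4 marker lists in each of the 11 tumours (vertical axis, log2, after subtracting each gene's mean of all tumours). Macrophage and monocyte markers are at 1.30 to 2.67 in PCL2 to PCL4 and at -0.91 in PCL1, and the median of the B cell markers stays between -0.48 and 0.42 in all tumours.

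Partners of the inhibitory and activating motifs were lower in PCL than in MCL for 12 of 16 genes, with a median of -0.45 against -0.03 over all genes, and 4 of the 16 passed the test, all lower, where 4.82% of all genes were called lower. Inppl1, which encodes the inositol phosphatase SHIP2, fell by 1.74 on the log2 scale (SE 0.40, adjusted p = 0.033, limma). Ptpn6, the phosphatase SHP-1 that binds ITIMs, fell by 1.29 (SE 0.33, adjusted p = 0.0475, limma), the Src-family kinase Blk by 1.26 (SE 0.31, adjusted p = 0.0394, limma) and the Src-inactivating kinase Csk by 0.64 (SE 0.15, adjusted p = 0.038, limma). Ptpn6 levels were 4.20, 3.06, 2.91 and 2.59 in PCL and 4.49, 4.57 and 4.38 in MCL, with PCL1 close to MCL. Inpp5d, which encodes SHIP1, the phosphatase that FcγRIIB recruits, differed by -0.46 ± 0.28 (SE; adjusted p = 0.338, limma) and was not called. Csk was higher in MCL than in BL by 0.67 ± 0.15 (SE, adjusted p = 0.0293, limma).

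Of 13 other B cell co-receptors and inhibitory receptors 12 were measured. Between PCL and MCL 1 passed the test, where 6.94% of all genes did (4.82% lower in PCL). Cd300a, an inhibitory receptor with ITIMs, fell by 1.11 in PCL relative to MCL (SE 0.26, adjusted p = 0.0363, limma) and was 1.47 ± 0.26 (SE; adjusted p = 0.0103, limma) higher in MCL than in BL. Its levels were -3.46, -2.54 and -2.95 in MCL, above every PCL and BL tumour. Cd22, an ITIM receptor of B cells, differed by -0.57 ± 0.42 (SE; adjusted p = 0.439, limma) between PCL and MCL. Of 7 genes tied to CD23 expression or shedding, including Il4ra, Notch2 and the protease gene Adam10, none was called in any comparison. At an unadjusted p under 0.05 (limma) 1 of these 7 passed between PCL and MCL, where 24.4% of all genes did, and 0 in the other comparisons, and the list median was -0.09 between PCL and MCL.

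Of 10 regulators of the B lineage, Spib, an ETS factor of B cells, had the largest difference between PCL and MCL. Its levels were 4.02, 2.83, 3.39 and 2.78 in PCL, 5.30, 5.36 and 5.31 in MCL, and 4.53, 4.60, 5.25 and 5.15 in BL. Spib fell by 2.06 in PCL relative to MCL (SE 0.31, adjusted p = 0.00813, limma) and by 1.63 relative to BL (SE 0.29, adjusted p = 0.0447, limma). Spi1, which encodes the related factor PU.1 and is also expressed by macrophages, was 1.38 ± 0.29 (SE; adjusted p = 0.0239, limma) higher in PCL than in MCL. Pax5 and Prdm1, which hold opposite ends of the path from B cell to plasma cell, were not called between any types.

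**Figure D5:**
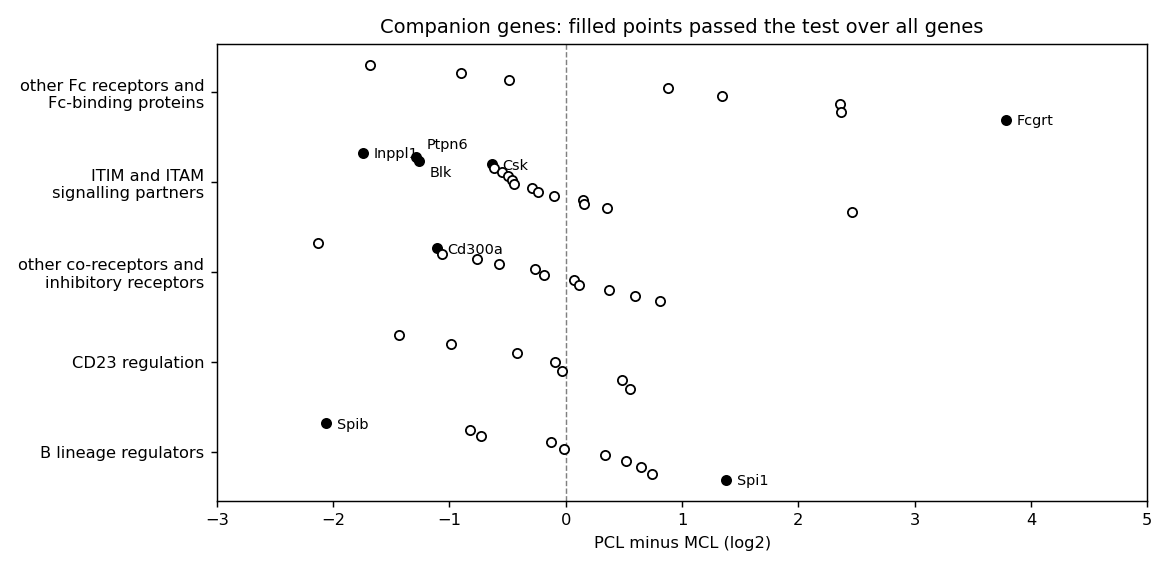
PCL minus MCL difference (horizontal axis, log2) of the measured genes of 5 companion lists; each point is 1 gene and filled points had an adjusted p under 0.05 over all genes. The 8 filled points are Fcgrt and Spi1, higher in PCL, and Inppl1, Ptpn6, Blk, Csk, Cd300a and Spib, lower in PCL.

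Of the companion calls between PCL and MCL, Spib was kept in all 21 other settings. Fcgrt was lost in 16, Ptpn6 in 14, Blk in 13, Csk in 12, Cd300a in 10, Spi1 in 9 and Inppl1 in 8 of the 21. The 8 calls became 13 without PCL1, 1 without PCL2, PCL3, PCL4 or MCL2, 2 without MCL3, 4 without BL2 or BL3 and 5 without BL4. The Spib call between PCL and BL was lost in 16 of 21 settings. Between MCL and BL the Csk call was lost in 12, that of Fcrls in 4 and that of Cd300a in 3 of the 21. Fcrls and Cd300a were dim, with MCL means of -3.84 and -2.98. With normexp background correction 0 companion genes were called between MCL and BL. Of all genes called between these types, 97% were higher in MCL.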

How the data were processed

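The authors deposited scanner files of one-colour Agilent arrays that, per the file headers, were read out by Feature Extraction 10.7.3.1. The processed signal in these deposited files is an intensity on a linear scale, and its precision is limited by the number of arrays. Per the file headers, spatial and multiplicative detrending were on and background adjustment was off on all arrays. A setting for normalization between arrays was not read from the headers. Between 21.5% and 29.2% of the spots hold a substitute value set for spots not above background. The authors also deposited a table in log2 units (unit found from the values, with medians of 7.25 to 7.26). On every array its values had a Spearman correlation of 1.0 with the scanner's median signal, not the processed signal. The step from that signal to the table is not described in the sources used here. The table served as an alternative.

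Of 43020 non-control spots per array, outlier-flagged spots were left out and spots of a probe averaged, and 46 probes without a spot left were dropped. Levels are log2 of the processed signal after subtraction of the 75th percentile of the array. A probe had to be well above background on 3 or more arrays (25295 were), and the brightest probe stood for a gene (20180 genes). Of all probes, 26575 were named by accession through RefSeq (GRCm38.p6), 2602 by a current and 492 by an older symbol, and 9760 by the array's own name. Tumours were grouped by the lymphoma type in the labels. limma 3.58.1 (R 4.3.3) fitted a mean per type over all 11 arrays (8 residual and 2.01 prior degrees of freedom), and a Benjamini-Hochberg adjusted p under 0.05 made a call. The script was tested on simulated data.

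The members and lists were chosen with earlier results of these data known. Named with values were all member probes and, of each list, genes called or up to 3 with the largest differences; Fcgr1, Pigr, Inpp5d, Cd22, Pax5 and Prdm1 were named for their role after their values were seen, as were Il4ra, Notch2 and Adam10. The 3 most similar named genes were taken by Pearson's r. Alternatives covered background correction, normalization, the filter, probe choice, array weights, a replicate block, the tumours used and a scaling to B cell markers. Same-position tumours on different slides correlated between -0.05 and 0.17 in their deviations from type means (3 of 10 pairs over 0.1). Pairs at different positions ran from -0.24 to 0.17. Position was left out of the main fit and entered only the replicate block. There Fcmr, PCL minus BL, was -1.91 ± 0.20 (SE, adjusted p = 0.0364, limma). Without position the SE was 0.55 and the adjusted p 0.119 (limma). The part of position in the differences was not tested.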

Additional observations from a re-analysis of the deposited data

Results flagged for a closer look

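In groups of 4 tumours, 4 of 34 groups checked held a tumour far from the other 3, where chance flags about 1 in 20. Fcrlb was at -3.70 in PCL1, with the nearest PCL tumour at -4.65. The IgG recycling receptor Fcgrt was at -3.69 in BL3, with the nearest BL tumour at -5.13. The kinase Blk was at 0.36 in BL4, with the nearest BL tumour at 0.65. The inhibitory receptor Cd300a was at -4.95 in BL3, with the nearest BL tumour at -4.31.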

How the results depend on the processing

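Fcmr kept its direction between PCL and MCL in all 21 other settings. Of the members Fcrlb changed sign there in 4, Fcer2a in 1 and Fcrl5 in 1 (the median of probes). Between PCL and BL Fcrla changed sign in 8, Fcrlb in 7, Fcrl5 in 4 and Fcrl1 in 2. Between MCL and BL Fcrlb changed sign in 8, Fcgr2b in 6 and Fcer2a in 1. With counts given in the order PCL against MCL, PCL against BL, MCL against BL, the counts of genes called were 1401, 133 and 1341. They were 197, 13 and 65 with normexp background correction. Without a filter on dim probes they were 697, 86 and 974, and 208 between PCL and BL with a stricter one. With array weights they were 4422, 2183 and 1120. From only the types compared they were 742, 117 and 291. Between MCL and BL quantile normalization gave 746 and the values of the authors' table gave 680. Scaling to B cell markers, chosen after seeing the data, gave 1393, 285 and 3390, and moved the median difference of all genes from -0.03, 0.09 and 0.06 to -0.21, 0.35 and 0.50. The medians were 0.16, 0.12 and -0.10 with normexp correction, and 0.13, 0.22 and 0.12 without the filter. The share of calls that were higher in the first type was 30.6%, 69.2% and 97% as reported. It was 46.2% between PCL and MCL and 38.5% between PCL and BL with normexp correction, 57.7% between PCL and BL with quantile normalization and 50.6% with the authors' table, and 17.2% and 91.2% in these comparisons with B cell scaling.

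With the replicate block, slide position as a term in the model, the counts of all genes were 391, 64 and 380, of companion genes 1, 0 and 0, and of members 1 between PCL and BL. The companion counts were 8, 1 and 3 as reported. They were 1, 0 and 0 with normexp correction, 2, 0 and 2 without the filter, 16, 10 and 5 with array weights, 2, 1 and 0 from only the types compared, and 5, 0 and 4 with B cell scaling. Between PCL and BL the companion count was 0 with quantile normalization and 2 with the stricter filter. Members called between PCL and BL were 1 with array weights. Leaving out a tumour in turn gave 333 (without PCL2) to 2462 (without PCL1) genes between PCL and MCL, 5 (without PCL2) to 1074 (without PCL1) between PCL and BL, and 687 (without MCL1) to 1372 (without PCL1) between MCL and BL. Companion counts ran from 1 to 13, 0 to 7 and 2 to 4, and members called from 0 to 1, 0 to 0 and 0 to 0. The cause of these shifts was not tested. The dimmer Fcrl5 probe was not well above background in MCL2, which limits its MCL mean.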
